A study of Mus musculus with 2 samples.

Results

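The 9 genes described here are the bone morphogenetic protein (BMP) ligands Bmp4, Bmp5 and Bmp7, the inhibitors of DNA binding Id1, Id2, Id3 and Id4, and the inhibitory signal transducers Smad6 and Smad7. They were taken from the gene tables by exact symbol, and all 9 were found among 27998 rows. The data are single-cell RNA counts of the whole dissociated pancreas of 1 knockout-titled embryo and 1 control embryo, both C57BL/6 and of embryonic day 13.5. The study's design text calls the mutant pancreas Dpy30∆P, a deletion of Dpy30, which encodes a subunit of the complexes that methylate histone H3 at lysine 4. The sources used here do not give the driver of the deletion, the cells it reaches or the genotype of the control. Live cells of each embryo were sorted as negative for a dead-cell dye after trypsin digestion, so each group is 1 library of 1 embryo, no test between the embryos was possible, and every interval below covers counting error alone at 95%.

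BMP ligands bind pairs of type I and type II receptor kinases, which phosphorylate Smad1, Smad5 and Smad9. These join Smad4 and enter the nucleus, where Id1, Id2 and Id3 are among their best-known direct targets. Id proteins have a helix-loop-helix domain without a DNA-binding region. They sequester the E proteins that proneural factors such as Neurog3 need as partners. Smad6 and Smad7 are also induced by the pathway and dampen it at the receptors. In the developing pancreas, BMP signals come to the epithelium from mesodermal tissue nearby, and Neurog3 starts endocrine differentiation in the epithelial trunk.

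Id2 and Id3 separated most clearly from Id1 across the endocrine classes below, so their promoters are shown. They run from 250 bases before to 50 bases after the RefSeq start, on GRCm38.p6 and in the direction of transcription. Capitals mark GGCGCC, a GC-rich motif bound by phosphorylated Smad1 and Smad5, and CAGAC or its complement GTCTG, the Smad-binding element. Both strands were searched, and the motifs do not overlap. The Id2 window is chr12:25096043-25096342 on the minus strand, and the Id3 window is chr4:136143572-136143871 on the plus strand.
Id2: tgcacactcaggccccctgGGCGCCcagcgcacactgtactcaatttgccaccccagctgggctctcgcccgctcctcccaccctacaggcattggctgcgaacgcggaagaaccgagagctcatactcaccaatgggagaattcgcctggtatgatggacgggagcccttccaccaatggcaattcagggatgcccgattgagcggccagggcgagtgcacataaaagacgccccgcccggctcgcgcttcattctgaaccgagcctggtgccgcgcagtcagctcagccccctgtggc
Id3: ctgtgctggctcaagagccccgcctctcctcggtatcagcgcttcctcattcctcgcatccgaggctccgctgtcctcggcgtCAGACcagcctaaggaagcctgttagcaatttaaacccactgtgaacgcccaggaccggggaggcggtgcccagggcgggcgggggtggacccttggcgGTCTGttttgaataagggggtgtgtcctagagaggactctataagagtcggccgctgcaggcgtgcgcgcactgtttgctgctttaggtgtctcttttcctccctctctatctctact
The Id2 window holds 1 GGCGCC, at position -231 from the start, and 0 CAGAC. The Id3 window holds 2 CAGAC matches, 1 on each strand, and 0 GGCGCC. Of 32851 RefSeq promoters of the same length, 11.9% hold GGCGCC and 49.6% hold CAGAC, so a match is common and is a description of the letters alone. Of the other members, Bmp4, Bmp5, Id4 and Smad6 were matched in the same promoter set. Id1, Bmp7 and Smad7 had no window there, so the motifs were not compared with those of Id1. Id1, the gene with the most UMIs, lies at chr2:152736251-152737410 on GRCm38 and Id3 at chr4:136143497-136145755, both on the plus strand. Id2 lies at chr12:25093799-25097140 on the minus strand. The Id2 and Id3 gene spans begin upstream of the RefSeq starts used, so both windows lie inside them.

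The libraries held 3044 knockout-labelled and 3900 control barcodes with 28033433 and 32702089 unique molecular identifiers (UMIs, the count of captured RNA molecules), a median of 8049 and 6825.5 per barcode. Only 22 barcodes occurred in both. Dpy30 was at 157 counts per 1000000 UMIs (CPM) in the knockout-labelled library and 147 CPM in the control library, so it was not lower under the knockout label. The labels do not say which part of the gene was deleted, and 3′ tags outside that part would check nothing. Xist had 56285 and 1 UMIs and Ddx3y 0 and 1750 UMIs in the knockout-labelled and control libraries, so the embryos were of opposite sex, and embryo, sex and genotype cannot be told apart. Cells were placed in classes by minimums on the UMIs of marker genes. This gave 192 knockout-labelled and 236 control tip cells (acinar enzyme transcripts), 100 and 146 trunk cells (Spp1, Sox9), 53 and 109 cells with at least 5 Neurog3 UMIs, 20 and 64 cells with at least 3 Chga UMIs, 1982 and 2412 mesenchyme cells, 167 and 189 mesothelium cells, and 29 and 28 endothelium cells. Some markers outside the gates went with the class names. Pdgfra was at 63.6 and 60.2 CPM in mesenchyme and at most 1.61 CPM in mesothelium. Wt1 was at 186 and 173 CPM in mesothelium, and Neurod1 at 130 and 107 CPM in Neurog3 cells against 0 in trunk. Dcn, also listed as a mesenchyme marker, went the other way, at 159 and 246 CPM in mesenchyme and 257 and 296 CPM in mesothelium. The duct gene Cftr had 0 UMIs in trunk cells of both libraries. In the class with Chga, the glucagon gene Gcg was at 1562 CPM in the knockout-labelled library and 6485 CPM in the control library.

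The 3 ligands were highest in different classes of the 7. Bmp4 was led by the mesothelium, the sheet of cells that covers the organ, at 20.8 CPM (14.6 to 28.8) in the knockout-labelled library and 20.4 CPM (14.5 to 28.1) in the control library. The mesenchyme was lower, at 4.60 and 3.73 CPM. Endothelium, with 3 UMIs (10.0 CPM, 2.07 to 29.3) in the knockout-labelled library and 1 UMI in the control library, has an interval that overlaps mesothelium in the knockout-labelled library. Epithelial Bmp4 came to 1 UMI, in a knockout-labelled tip cell, over the tip, trunk, Neurog3 and Chga classes of both libraries. In the control trunk, for example, 0 UMIs allow a level of up to 1.63 CPM (3 counts over the total). Bmp4 positive mesothelium cells made up 19.2% of the knockout-labelled library's and 14.8% of the control library's, and 7.19% and 7.45% once every cell was thinned to 3000 UMIs.

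Bmp5, a close relative of Bmp7, was low and was highest in mesenchyme, where its interval overlapped that of the next class in both libraries. Its CPM in mesenchyme was 5.89 (4.75 to 7.24) in the knockout-labelled library and 4.11 (3.18 to 5.23) in the control library, a log2 ratio of (CPM + 5) of 0.26 (0.03 to 0.49). Within mesenchyme, both Bmp4 and Bmp5 were higher in cells with Isl1, a transcription factor of splanchnic mesoderm. Knockout-labelled cells with at least 1 Isl1 UMI had 7.80 CPM of Bmp4 and 8.48 CPM of Bmp5, against 3.34 and 4.87 CPM in those without. Control cells with Isl1 had 7.25 CPM of each, against 2.77 and 3.25 CPM in those without. The Bmp4 difference went the same way in both embryos. Isl1 itself was higher in mesothelium, at 176 and 175 CPM, than in mesenchyme, at 52.6 and 40.8 CPM. The part of mesothelium-like cells in the Bmp4 difference was not tested.

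Bmp7 was highest in the epithelial tip and trunk. Tip cells had 62.2 CPM (54.2 to 71.0) in the knockout-labelled library and 56.6 CPM (49.8 to 64.0) in the control library, and trunk cells 43.8 and 38.6 CPM. Its level was 17.9 and 17.5 CPM in cells with at least 5 Neurog3 UMIs, less than in trunk in both libraries, with log2 ratios to trunk of -1.09 (-1.88 to -0.31) and -0.96 (-1.58 to -0.33). The class with Chga had 3 Bmp7 UMIs in each library, 18.9 CPM (3.90 to 55.2) in the knockout-labelled and 5.33 CPM (1.10 to 15.6) in the control library. Mesenchyme had 7.51 and 7.97 CPM and mesothelium 9.24 and 9.14 CPM. The level that background RNA would give mesenchyme was estimated at 0.919 and 0.855 CPM, below those values. Endothelium had 0 Bmp7 UMIs in both libraries, which allows up to 10.0 CPM in the knockout-labelled and 10.4 CPM in the control library.

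Summed over a whole class, ligand levels were close in the 2 embryos where they were highest. The interval of the Bmp7 ratio in tip ran from -0.12 to 0.37 around 0.13, and that of Bmp4 in mesothelium from -0.53 to 0.57 around 0.02. Both intervals lie inside 1.5-fold, the size used below for naming a difference between the embryos. Split by mitotic genes, mesothelial Bmp4 was uneven. Cells without mitotic UMIs had 19 knockout-labelled and 4 control Bmp4 UMIs, a log2 ratio of 1.13 (0.03 to 2.10). Cells with at least 3 mitotic UMIs had 9 and 31 Bmp4 UMIs, a ratio of -0.65 (-1.57 to 0.25).

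**Figure D1:**
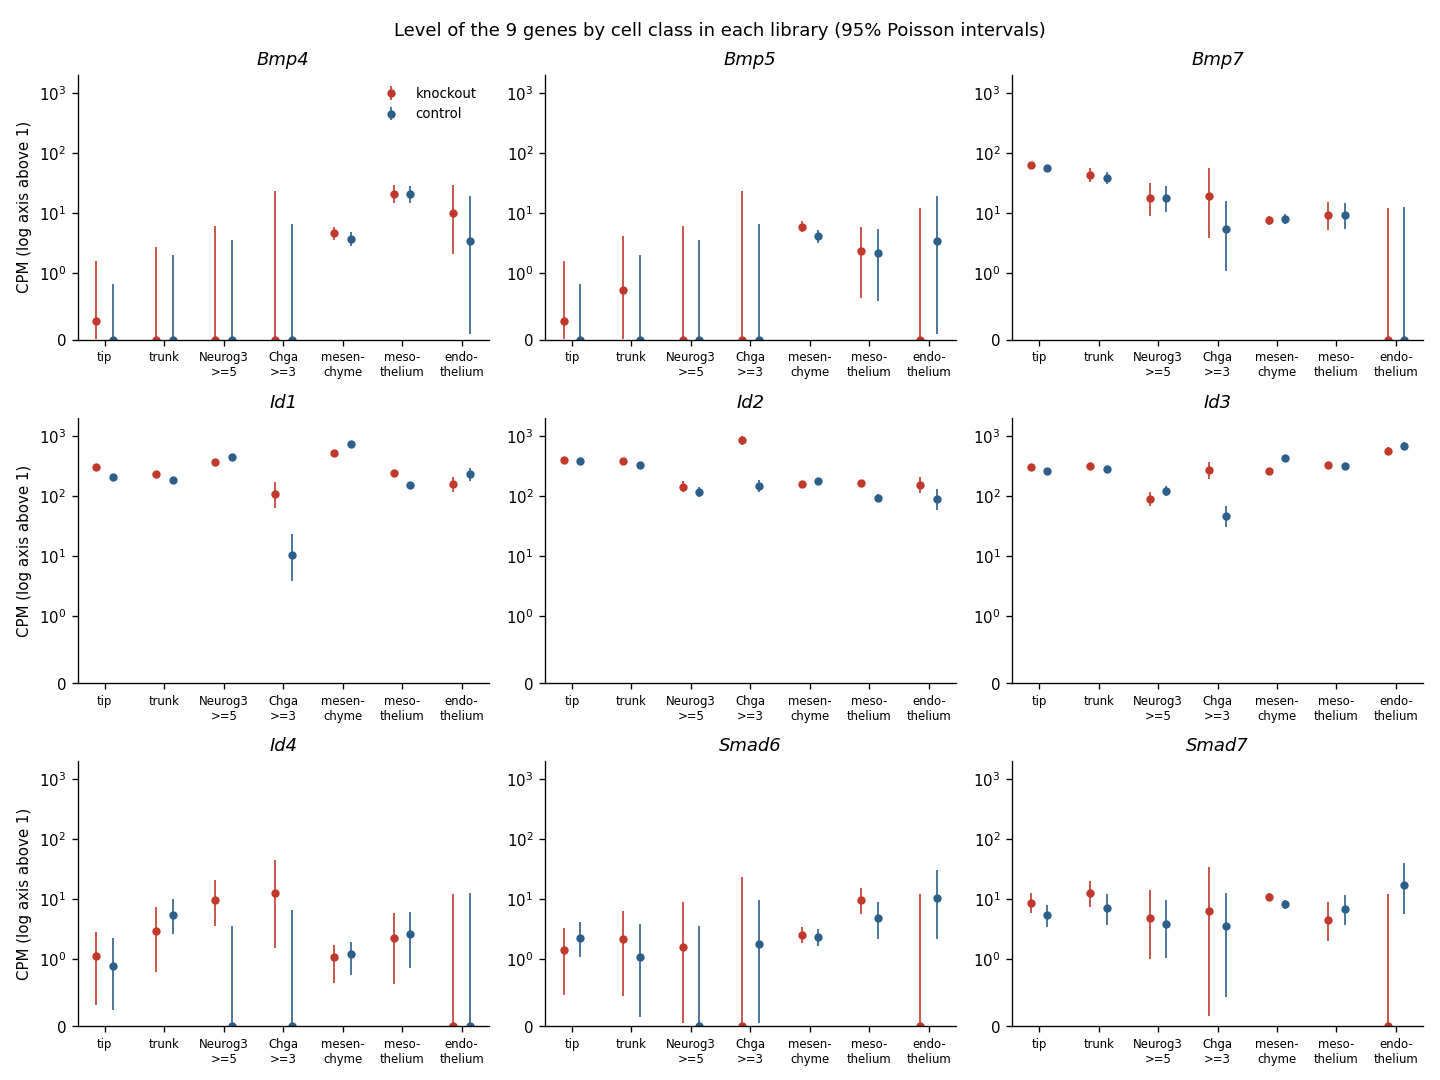
Level of each gene (CPM, log axis above 1, linear below) in the 7 cell classes, with knockout-labelled points left of control points and bars for exact 95% Poisson intervals of the summed counts. Bmp4 peaks in mesothelium at 20.8 and 20.4 CPM, Bmp7 in tip at 62.2 and 56.6 CPM, and Id1 in mesenchyme at 531 and 727 CPM, while Id4, Smad6 and Smad7 stay under 20 CPM in all 7 classes.

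Id1, Id2 and Id3 each had UMIs in all 7 classes and a different order of classes. Of the 7, Id1 was highest in mesenchyme, at 531 CPM (520 to 543) in the knockout-labelled library and 727 CPM (714 to 740) in the control library. Cells with at least 5 Neurog3 UMIs came next in both, at 370.2 and 451 CPM. The lowest of the 7 was the class with Chga, at 107 and 10.7 CPM. Along this order, the intervals of mesothelium, trunk, endothelium and the Chga class each overlapped the next in the knockout-labelled library, as did those of endothelium, tip, trunk and mesothelium in the control library. For comparison, immune cells, a class of 22 and 80 cells with a median of 10914 and 8727 UMIs per cell, had 16.1 and 52.3 CPM of Id1.

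Among the 7 classes, Id2 was led by tip and trunk in the control library and, after the 20 cells with Chga described below, in the knockout-labelled library. Tip cells had 396 and 388 CPM and trunk cells 383 and 326 CPM, in the knockout-labelled and control libraries. Cells with at least 5 Neurog3 UMIs had 144 and 118 CPM. In mesenchyme Id2 stood at 157 and 177 CPM, so it was the least abundant of these 3 Id genes there and made up 16.5% and 13.3% of their UMIs with Id4 included.

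Among the 7 classes, Id3 was highest in endothelium, at 567 CPM (485 to 659.5) in the knockout-labelled library and 689 CPM (596 to 792) in the control library. An Id3 UMI was found in 27 of the 29 knockout-labelled and 27 of the 28 control cells. Trunk, at 319 and 282 CPM, and tip, at 309 and 263 CPM, overlapped in both libraries. The second place differed between the embryos: it was mesothelium in the knockout-labelled library, at 330.2 CPM, and mesenchyme in the control library, at 427 CPM. The Id3 level in mesenchyme, 267 CPM, was 6th of the 7 in the knockout-labelled library and 2nd in the control library. From mesothelium down to mesenchyme in the knockout-labelled library, each interval overlapped that of the next class, so neighbouring places there were not resolved.

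Between the embryos, 36 of the 63 pairs of a member and a class had at least 20 UMIs. Of these, 7 were at least 1.5-fold higher in the knockout-labelled library and 1 was lower. Over all genes and classes with that depth, 4.17% of such pairs were higher and 4.91% lower. Past 2-fold there were 3 higher and 0 lower pairs, against 0.709% and 1.13% over all genes. The lower pair was Id3 in mesenchyme, the class with most cells. All 9 members had at least 20 UMIs there, and 0.810% of 12843 genes were past the same size on the lower side, 0.491% on the higher side and 1.30% on either. Mesenchymal Id3 was at 267 CPM (259 to 275) in the knockout-labelled library and 427 CPM (417 to 437) in the control library, a log2 ratio of -0.67 (-0.72 to -0.61). After thinning to 3000 UMIs, 43.6% of 1950 knockout-labelled and 58.3% of 2386 control cells had an Id3 UMI. Id1 was lower by less, at -0.45 (-0.49 to -0.41), and Id2 lay at -0.17 (-0.24 to -0.09). The order of size, Id3, Id1, Id2, was measured on the same cells, and the part of depth in it was not tested.

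The distributions of Id3 and Id1 differed at both ends. Cells with 0 thinned Id3 UMIs were 56.4% of the knockout-labelled and 41.7% of the control mesenchyme. Cells with 5 or more thinned Id3 UMIs were 2.05% of the knockout-labelled and 5.36% of the control mesenchyme, and for Id1 they were 5.85% and 14.8%. For Id2 they were 0.923% and 0.880%. Cells with 0 thinned UMIs of all 4 Id genes were 18.2% and 12.8%.

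**Figure D2:**
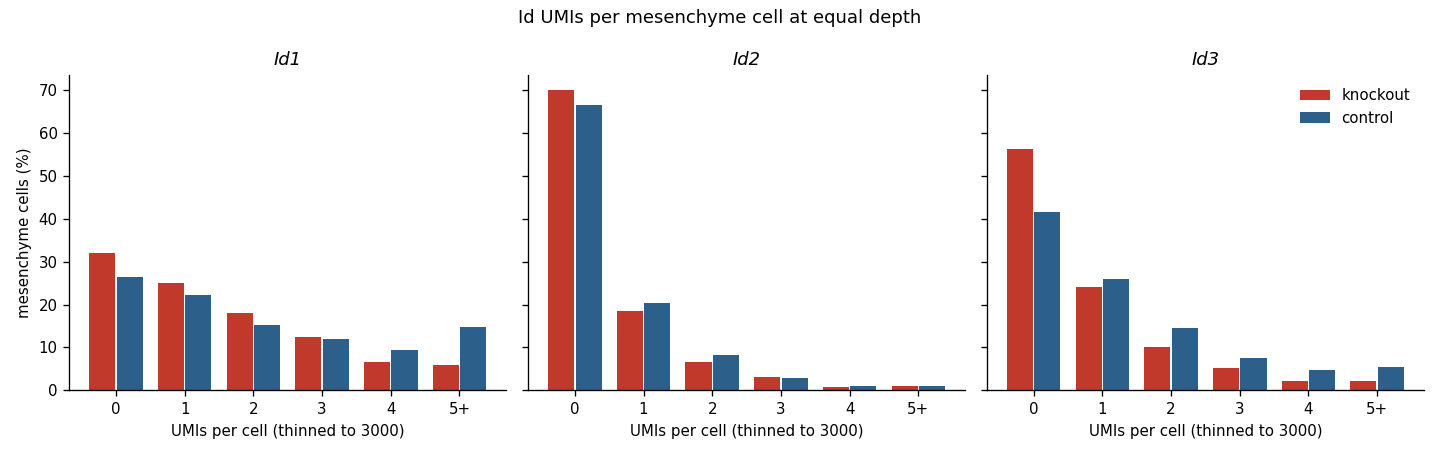
Share of mesenchyme cells (%) with 0, 1, 2, 3, 4 or 5 and more UMIs of Id1, Id2 and Id3 after each cell was thinned to 3000 UMIs, knockout-labelled bars left of control bars (1950 and 2386 cells). Knockout-labelled cells with 0 Id3 UMIs are 56.4% against 41.7% in the control library, and the bars for Id2 nearly match.

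The Id3 difference was uneven over the mesenchyme. In cells without Isl1 UMIs Id3 was at 229 CPM in the knockout-labelled library and 414 CPM in the control library (log2 ratio -0.84, -0.91 to -0.77), and in cells with Isl1 at 362 and 476 CPM (-0.39, -0.49 to -0.29). Cells without UMIs of Lum, a proteoglycan of collagen-rich fibroblasts, gave 241 and 425 CPM (-0.81, -0.87 to -0.74). Those with at least 3 Lum UMIs had 499 and 535 CPM of Id3 (-0.10, -0.24 to 0.04), and there Id2 was higher in the knockout-labelled library, at 338 and 220.4 CPM (0.60, 0.42 to 0.79). Cells without UMIs of 4 mitotic genes gave -0.71 for Id3 and those with at least 3 gave -0.66. Of 18 immediate early genes, which dissociation induces, 13 were below 0 here, with a median log2 ratio of -0.20. Their summed level was 3856 CPM in the knockout-labelled and 4415 CPM in the control mesenchyme. Past 1.5-fold were 2 of them, Ier3 at -0.90 and Nr4a1 at -1.04. Among cells with 0 UMIs of both Ier3 and Nr4a1, the Id3 ratio was -0.63 (-0.70 to -0.55). The part of the immediate early genes in the Id3 value was not tested. With stricter gates (at least 10 collagen UMIs) the ratio was -0.57, just inside the 1.5-fold bound.

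In mesothelium it was Id1 and Id2 that differed, and both were higher in the knockout-labelled library. Of the 7 members with at least 20 UMIs, 3 were at least 1.5-fold higher in the knockout-labelled library and 0 lower, where 3.84% of 9247 genes were higher, 4.97% lower and 8.81% either. Id1 had 246 CPM (223 to 270.4) in the knockout-labelled library and 153 CPM (136 to 172) in the control library, a log2 ratio of 0.66 (0.45 to 0.88). Id2 had 167 and 93.0 CPM, a ratio of 0.81 (0.55 to 1.08). Id3, the most abundant of the family in this class, was at 330.2 and 319 CPM, a ratio of 0.05 (-0.12 to 0.21). So Id3 made up 44.3% of the summed Id UMIs in the knockout-labelled mesothelium and 56.2% in the control mesothelium.

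At equal depth, 46.7% of knockout-labelled and 26.6% of control mesothelium cells had an Id1 UMI, and 29.9% and 18.1% had an Id2 UMI. Cells with at least 3 mitotic UMIs were 22.8% of the knockout-labelled and 42.9% of the control mesothelium. Without mitotic UMIs the ratios were 0.71 for Id1 and 0.72 for Id2, and with at least 3 they were 0.68 and 0.89, so Id1 and Id2 were past 1.5-fold within either set of cells. The immediate early genes were also mostly higher here: 12 of 15 lay above 0, with a median of 0.19, and their summed level was 2206 and 1966 CPM. In tip, trunk and Neurog3 cells these genes were mostly lower, with 11 of 15, 10 of 14 and 12 of 14 below 0 and medians of -0.36, -0.45 and -0.52. Their part in the Id values was not tested. Under stricter gates Id1 was at 0.56, inside the 1.5-fold bound.

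Endothelial Id2 had 46 UMIs (154 CPM, 112 to 205) in the knockout-labelled library and 26 UMIs (90.5 CPM, 59.1 to 133) in the control library. Its log2 ratio was 0.73 (0.05 to 1.43), and it was the only one past 1.5-fold of 3 members with at least 20 UMIs, where 11.2% of 3514 genes were higher and 9.85% lower, 21.0% in all. Id1 was at 156.9 and 229.6 CPM (ratio -0.54, -1.08 to 0.00) and Id3 at -0.28 (-0.58 to 0.02). The class holds 29 and 28 cells. In endothelial cells without mitotic UMIs the Id2 ratio was 0.50. Immediate early genes lay above 0 for 10 of 13 here, with a median of 0.44 and a summed level of 2193 and 1816 CPM, and their part in the result was not tested.

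**Figure D3:**
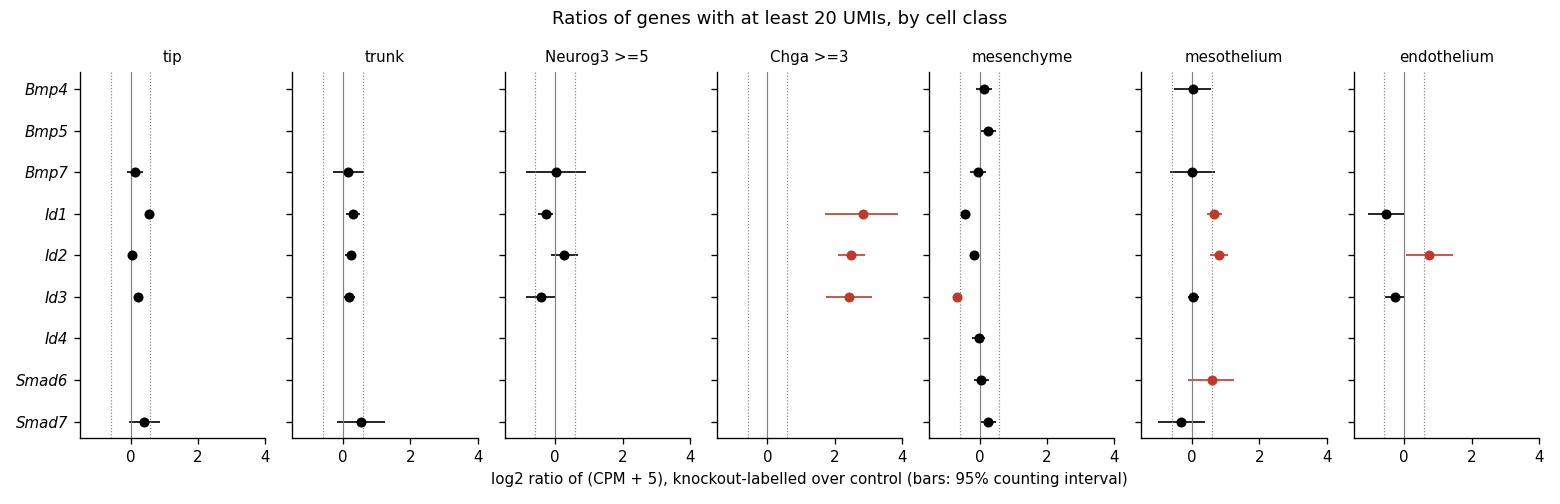
Log2 ratio of (CPM + 5), knockout-labelled over control, for each member with at least 20 UMIs in a class. Bars are 95% counting intervals, dotted lines mark 1.5-fold and red points lie past it. The Chga class stands at 2.43 to 2.84 for Id1, Id2 and Id3, mesothelium at 0.66 and 0.81 for Id1 and Id2, and mesenchyme at -0.67 for Id3.

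In the exocrine and ductal precursors the Id genes were near the control or somewhat above it. Tip Id1 was at 304 CPM (286 to 323) in the knockout-labelled library and 206 CPM (193 to 220.1) in the control library, a log2 ratio of 0.55 (0.42 to 0.68) that fell short of the size rule. Id2 was at 396 and 388 CPM in tip (0.03, -0.08 to 0.13), and Id3 at 309 and 263 CPM (0.23, 0.11 to 0.35). In tip, 0 of 5 members passed, against 5.07% of 10205 genes in either direction (2.37% higher and 2.69% lower). In trunk, 0 of 5 passed, against 8.09% of 8806 genes (3.79% higher and 4.29% lower), with ratios of 0.30 for Id1, 0.23 for Id2 and 0.17 for Id3. Cells with at least 3 mitotic UMIs were 34.9% of knockout-labelled and 63.6% of control tip cells. The tip Id1 ratio was 0.57 in cells without mitotic UMIs and 0.72 in those with at least 3. In trunk cells without mitotic UMIs, Id2 was at 369 CPM in 35 knockout-labelled and 201 CPM in 55 control cells, a ratio of 0.86 (0.51 to 1.21) that is past 1.5-fold, and in those with at least 3 it was 0.15 (-0.07 to 0.37).

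In summed counts, Id1 parted from Id2 and Id3 where Neurog3 was high, and it did so in both embryos. From trunk to cells with at least 5 Neurog3 UMIs, Id2 was lower by a log2 ratio of -1.38 (-1.71 to -1.07) in the knockout-labelled library and -1.43 (-1.71 to -1.16) in the control library. Id3 was lower by -1.77 (-2.18 to -1.39) and -1.18 (-1.46 to -0.91). Id1 was higher, at 0.66 (0.41 to 0.91) and 1.25 (1.05 to 1.45). In the knockout-labelled library 13.7% of 7671 genes were higher and 15.4% lower by at least 1.5-fold in this comparison, and in the control library 14.3% and 16.4% of 8702 genes. The Id1 share of summed Id UMIs was 60.4% and 65.4% in the Neurog3 class, against 24.8% and 23.4% in trunk.

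In cells with 1 to 4 Neurog3 UMIs, Id2 and Id3 had intervals of the log2 ratio to trunk that span 0 in both libraries. Unlike trunk, this class had no limit on acinar transcripts. Its Cpa1 was at 74.6 CPM in the knockout-labelled and 438 CPM in the control library, against 26.0 and 39.2 CPM in trunk. Cells with at least 3 mitotic UMIs were 21.6% and 51.5% of it. The part of tip-like cells in its values was not tested. Id1 was at -0.01 (-0.30 to 0.26) against trunk in the knockout-labelled library and at 0.32 (0.11 to 0.54) in the control library. In these cells Id2 was at 341 and 344 CPM, Id3 at 287.6 and 279.9 CPM, and Id1 at 229.8 and 236 CPM. At equal depth, 24.5% of knockout-labelled and 15.6% of control cells with at least 5 Neurog3 UMIs had an Id2 UMI, against 55.0% and 44.1% in trunk. For Id1 the shares were 54.7% and 54.1% in that class, against 47.0% and 40.0% in trunk, with intervals that overlap in both libraries. Thinned to 5000 UMIs, the Id1 shares were 64.0% and 71.4%, against 62.9% and 49.6% in trunk. Knockout-labelled cells with 34, 31 and 21 of the 227 Id1 UMIs of the class had 40, 50 and 68 Spp1 UMIs. Between the embryos, 0 of 4 members passed 1.5-fold in the Neurog3 class, where 13.3% of 7078 genes did (6.87% higher and 6.46% lower). Its Id1 ratio was -0.28 (-0.51 to -0.05), Id2 0.28 (-0.12 to 0.67) and Id3 -0.42 (-0.87 to 0.02). In cells without mitotic UMIs the Id3 ratio turned to 0.59, which reaches 1.5-fold.

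**Figure D4:**
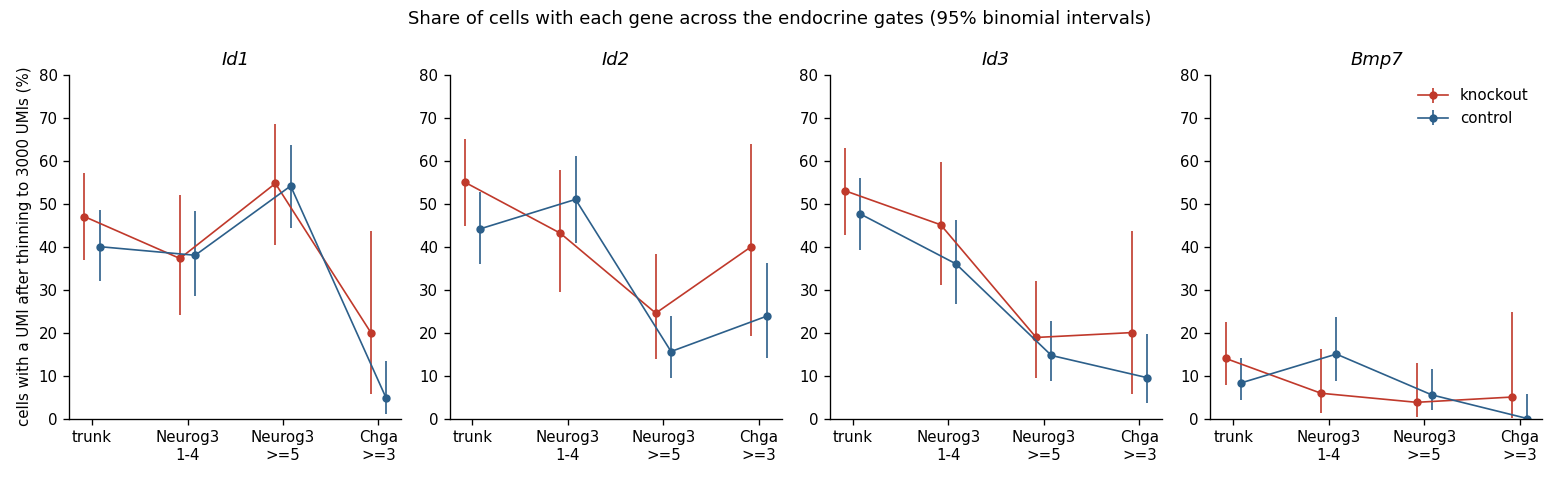
Share of cells (%) with a UMI of Id1, Id2, Id3 or Bmp7 after thinning to 3000 UMIs, in trunk, cells with 1 to 4 Neurog3 UMIs, cells with at least 5, and cells with at least 3 Chga UMIs, knockout-labelled points left of control points, with exact 95% binomial intervals. Id1 stays at 54.7% and 54.1% in the high Neurog3 class while Id2 is at 24.5% and 15.6% and Id3 at 18.9% and 14.7%.

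The authors' deposited table, made on 7 clusters without names, lists members in some of them. Its cluster led by Neurog3 and Cck has Id2 at an average log fold of -1.10 and Id3 at -1.02, found in 22.3% and 18.4% of the cluster's cells, and Bmp7 at -0.33. Id1 is not listed for that cluster. In the authors' deposited table the cluster led by Gcg and Pyy has Id1 at -0.86, Id3 at -0.56 and Bmp7 at -0.28, and a cluster led by Ube2c and Cenpf, genes of mitosis, has Id2 at 0.34 and Id3 at 0.30. The table is built from the same cells and the log is read as natural.

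Cells with at least 3 Chga UMIs, the early hormone lineage, showed the largest ratios of the 7 classes, on few cells. Id1 had 17 UMIs (107 CPM, 62.4 to 171) in the 20 knockout-labelled cells and 6 UMIs (10.7 CPM, 3.91 to 23.2) in the 64 control cells. The control level is near that of background RNA, estimated at 10.9 CPM in the control class and 8.99 CPM in the knockout-labelled class. Among barcodes of mostly haemoglobin UMIs, 8 of 37 knockout-labelled ones held 26 Id1 UMIs and 2 of 32 control ones held 3. Id2 had 850.4 CPM (713 to 1007) in the knockout-labelled cells and 148 CPM (118 to 183) in the control cells, and Id3 had 43 UMIs (271 CPM) and 26 UMIs (46.2 CPM). The log2 ratios were 2.84 (1.72 to 3.88), 2.49 (2.09 to 2.89) and 2.43 (1.75 to 3.12). All 3 members with at least 20 UMIs passed, in a class where 9.98% of 4849 genes were higher, 15.6% lower and 25.6% either.

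A few cells carried these values. The highest knockout-labelled cell held 90 of the 197 summed Id UMIs, 45.7%, of which 83 were Id2, and had 9 Chga, 14 Gcg and 23 Isl1 UMIs. The next held 40, together with 51 Cpa1, 317 Clps and 6 Ptf1a UMIs, acinar transcripts, and 5 Chga UMIs. It had 21 of the 43 Id3 and 9 of the 17 Id1 UMIs of the class. A further cell with 10 Cpa1, 16 Clps, 6 Ptf1a and 4 Chga UMIs held 9 Id3 and 1 Id1 UMIs, and these 2 cells hold all 12 Ptf1a UMIs of the class. The median cell had 1.5 summed Id UMIs in the knockout-labelled library and 1 in the control library. Without the cell of each library with most UMIs of the gene in question, which is not the same cell for each gene, the ratios were 2.08 for Id1, 1.40 for Id2 and 1.82 for Id3, and without the 2 such cells 1.73, 1.19 and 1.35. With the cells scored as doublets kept, Id1 was at 1.11, Id2 at 2.42 and Id3 at 1.74. At equal depth, 40.0% (19.1 to 63.9) of knockout-labelled and 23.8% (13.98 to 36.2) of control cells had an Id2 UMI, and these intervals overlap. Clps was at 2539 CPM in the knockout-labelled class and 569 CPM in the control class, and its part in the Id values was not tested.

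**Figure D5:**
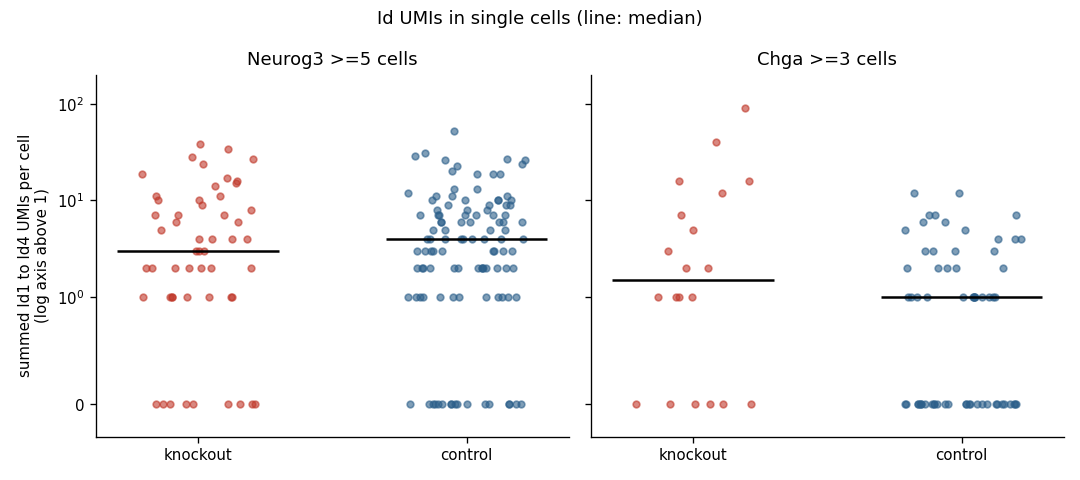
Summed Id1 to Id4 UMIs in each cell (log axis above 1) with at least 5 Neurog3 UMIs (left) or at least 3 Chga UMIs (right), knockout-labelled cells left of control cells, with lines at the medians. In the Chga class 2 knockout-labelled cells hold 90 and 40 UMIs, and the highest control cell holds 12.

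Id4 and the inhibitory Smads were sparse. Id4 came to 17 UMIs in knockout-labelled and 20 UMIs in control mesenchyme, a log2 ratio of -0.03 (-0.22 to 0.16). Its 6 UMIs in 5 knockout-labelled Neurog3 cells stood against 0 in the control cells, under the 20 UMIs the size rule asks for.

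Smad6 was led by mesothelium in the knockout-labelled library, with 17 UMIs (9.81 CPM, 5.72 to 15.7), against 9 UMIs (4.84 CPM, 2.21 to 9.19) in the control library. Its ratio of 0.59 (-0.11 to 1.25) just passed 1.5-fold, and it was 0.01 in cells without mitotic UMIs and 0.26 with a pseudocount of 20 CPM. Smad7, the broader of the pair, had 11.0 CPM (9.42 to 12.8) in knockout-labelled and 8.40 CPM (7.04 to 9.94) in control mesenchyme, a ratio of 0.26 (0.04 to 0.47). In trunk it was at 12.6 and 7.07 CPM (0.54, -0.17 to 1.24) and in tip at 8.84 and 5.41 CPM (0.41, -0.05 to 0.86). Smad7 thus lay above the control in 3 of the 4 classes with at least 20 UMIs, and mesothelium, at 4.62 and 6.99 CPM, was the exception. The intervals in tip, trunk and mesothelium span 0. Endothelium, under 20 UMIs, had 0 knockout-labelled and 5 control Smad7 UMIs (-2.16, -3.19 to -0.07).

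Of 49 other genes of the pathway, 34 had at least 20 UMIs in mesenchyme, 24 in tip, 21 in mesothelium, 20 in trunk, 15 in Neurog3 cells, 12 in endothelium and 8 in Chga cells. Of 134 such pairs of a gene and a class, 5.97% were higher (8) and 2.99% lower (4) by 1.5-fold, against 4.17% and 4.91% of the pairs over all genes. They were 1 in mesenchyme (lower), 0 in tip, 2 in mesothelium (1 in each direction), 3 in trunk (higher), 2 in Neurog3 cells (1 in each direction), 2 in endothelium (1 in each direction) and 2 in Chga cells (higher). The list's median log2 ratio was -0.01 in mesenchyme and 0.14 in tip, where all genes tested had medians of -0.01 and 0.01. The receptor Bmpr1a was at 33.8 and 32.2 CPM in knockout-labelled and control mesenchyme (0.06, -0.09 to 0.21) and at 56.0 and 52.7 CPM in mesothelium (0.08, -0.30 to 0.46). The signal transducers Smad1, at 22.9 and 25.1 CPM, and Smad5, at 68.1 and 74.6 CPM, were also inside 1.5-fold in mesenchyme. In mesothelium Smad5 was higher, at 27.7 and 16.7 CPM (0.59, 0.05 to 1.13), and the ligand Bmp2 lower, with 10 and 25 UMIs (-0.78, -1.41 to -0.09).

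Among targets, Hey1, which also answers to Notch, was lower in mesenchyme, at 2.72 CPM in the knockout-labelled and 8.65 CPM in the control library (-0.82, -1.04 to -0.59), and in endothelium, with 7 and 28 UMIs (-1.85, -2.96 to -0.79). In trunk it was higher, at 28.9 and 17.4 CPM (0.60, 0.03 to 1.16). The other pair past the size rule in trunk were the extracellular modulators Chrdl1, with 15 and 7 UMIs (0.87), and Twsg1, with 41 and 33 UMIs (0.63). Bambi, a decoy receptor that BMP induces, was highest of the epithelial classes in Neurog3 cells, at 197 and 166 CPM against 31.9 and 44.6 CPM in trunk. This is the direction of Id1 and not that of Id2 and Id3. Smad7 and Smad6, also induced by the pathway, were below trunk there, with intervals that span 0. Their log2 ratios were -0.83 and -0.44 for Smad7 and -0.12 and -0.28 for Smad6. Of all genes, 13.7% and 14.3% were at least 1.5-fold higher in that comparison. The E protein Tcf4, a partner that Id proteins bind, was at 232 and 276 CPM in mesenchyme (-0.25, -0.31 to -0.19). The remaining pairs past the size rule had fewer than 50 UMIs each: Rgma at 0.64 and Atoh8 at -0.60 in Neurog3 cells, Smad4 at 1.05 and Tcf3 at 0.88 in Chga cells, and Tcf3 at 0.68 in endothelium.

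Within a class, the counts of the Id genes varied together weakly across cells. In mesenchyme thinned to 3000 UMIs, Spearman's rho of Id2 with Id3 was 0.29 over 1950 knockout-labelled cells and 0.24 over 2386 control cells, and in mesothelium it was 0.45 over 167 and 0.22 over 188 cells. For Id1 with Id3 it was 0.20 and 0.28 in mesenchyme, 0.33 and 0.25 in trunk and 0.31 and 0.20 in tip, in the knockout-labelled and control libraries. In tip, Bmp7 had a rho with Id1, Id2 and Id3 of -0.01, -0.03 and -0.17 in the knockout-labelled library and 0.09, -0.01 and -0.10 in the control library. Such values across cells of 1 library share its depth and are weak in sparse counts.

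Over the 14 points of 7 classes in 2 libraries, the genes whose level was most like a member's were sought among 5035 genes by Pearson's r of log2(CPM + 5). Bmp4 was closest to Gas6 (0.97), Nid2 (0.96) and Hoxa7 (0.96), Bmp5 to Col6a1, Kdelr3 and Slit2 (0.94 to 0.95), and Bmp7 to Cldn10 (0.94), Mrpl50 (0.93) and Gc (0.92). The Id genes had looser matches, with Ifitm2 (0.88), Fgfr1 and Cdc42ep5 for Id1, Ptp4a1 (0.90), Timm9 and Gstm7 for Id2, and Sgk1 (0.91), Clns1a and Timm10 for Id3. Id1, Id2 and Id3 were not among each other's matches: r was 0.45 between Id1 and Id3, 0.06 between Id2 and Id3 and -0.08 between Id1 and Id2. Points of 1 library share its processing and points of 1 class share its cells, so these are descriptions.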

How the data were processed

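Single-cell RNA was measured in 1 knockout-titled and 1 control embryonic pancreas (10x Chromium 3′ version 2 chemistry, target of 5000 cells, per the labels' protocols), grouped by sample title. The 2 deposited matrices are raw counts of UMIs. The tools listed in the submitters' processing notes are Cell Ranger, with build GRCm38, and Seurat 2 and 3. For each cluster and gene, the authors deposited an average fold, taken here to be on the natural log (ln) scale, and the fraction of cells with each gene, given here as a percent. The deposited p-values, made over cells, were not used.

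Cells were kept with at least 500 genes, 1000 UMIs and at most 10% mitochondrial UMIs, which removed 32 knockout-labelled and 29 control barcodes. The highest doublet scores from 2 simulated doublets per cell (scanpy 1.11.5), 0.8% per 1000 barcodes, removed 73 and 121 cells, which left 2939 and 3750. Gates were minimums on summed marker UMIs: 3 for the epithelial set (Epcam, Cdh1, Cldn7) and for mesothelium, and 5 for endothelium, immune cells and collagen-positive mesenchyme. Cells of a further gate are not reported here. Within epithelium, cells with at least 3 Chga UMIs were taken first, then at least 5 Neurog3 UMIs. Cells without Neurog3 were tip with at least 20 UMIs of acinar genes, or trunk with fewer than 10 of these and at least 10 of trunk genes. The 7 classes held 2543 and 3184 cells, and cells in 2 gates were left out.

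Counts were summed per class and library and given as CPM of all genes, with exact Poisson intervals. Shares have exact Clopper-Pearson intervals and are also given after thinning to 3000 UMIs. Ratios are log2 of (CPM + 5), knockout-labelled over control, and their intervals combine the exact bounds of both counts. A difference was named at 1.5-fold with at least 20 UMIs over both libraries. PCR-duplicate reads are collapsed by UMIs, and intervals cover counting error only. Background RNA was estimated from mesenchymal genes in the epithelial classes and epithelial genes in the others, at 1.83% to 4.91% of UMIs. The steps were tested on simulated counts. TMM factors came from edgeR 4.0.16, used for scaling alone. Named genes are the 9 members, 49 other pathway genes (per class the 2 highest and 2 lowest past 1.5-fold, others as checks) and, for each member, the 3 most like it by Pearson's r among genes of at least 50 CPM in a class. Bmpr1a, Smad1, Bambi and Tcf4 were chosen for their roles after their values were seen, and the splits by Isl1, Lum, mitotic and immediate early genes were also chosen after seeing the data. The members and lists were chosen with earlier results of these data known. Alternatives were other cell filters, doublet handling, gates, scalings, thinning, pseudocounts, background subtraction and the size rule, and, added after seeing the data, cells without mitotic UMIs and leaving out the highest cells.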

Additional observations from a re-analysis of the deposited data

Results flagged for a closer look

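Id3 differed between the embryos in opposite directions in 2 classes. Its log2 ratio, knockout-labelled over control, was 2.43 in cells with at least 3 Chga UMIs and -0.67 in mesenchyme. The difference between the classes was not tested, since there is 1 library per group. The Chga value rests on 20 knockout-labelled cells with 43 Id3 UMIs. Of these UMIs, 21 lay in a cell with 51 Cpa1 and 317 Clps UMIs, and 9 in a cell with 10 Cpa1 and 16 Clps UMIs.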

How the results depend on the processing

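No paired analysis was possible because each group is 1 library of 1 embryo. Of 540 values of members under the alternatives, 521 kept the sign and 19 changed it, and of 120 values past 1.5-fold, 114 stayed past it. The summed log2 ratio of Id1 to Id4 in Chga cells, 2.57 as reported, was 2.13 without doublet removal, 2.09 with loose gates, 1.85 in cells without mitotic UMIs, 1.91 without the cell of each library with most Id UMIs and 1.49 without the 2 such cells. In Neurog3 cells it was -0.17 as reported, -0.39 with strict gates, 0.18 thinned to 3000 UMIs and 0.13 without mitotic UMIs. In tip it was 0.23 as reported, 0.16 without doublet removal and 0.39 thinned. It was 0.54 thinned in mesothelium (0.39 as reported), -0.40 with strict gates in mesenchyme (-0.48) and 0.52 without mitotic UMIs in trunk (0.22). The cause of these changes was not tested. Of the 7 higher pairs of a member and a class, 3 had at least 100 UMIs and 3 passed a fold of 2, and 0 of the lower pairs passed a fold of 2. Id3 in Neurog3 cells was 0.59 without mitotic UMIs against -0.42 as reported. TMM scaling moved the log2 ratio of all genes by at most 0.0823 in size, downward, in Chga cells. Depth limits Id4, Smad6 and Smad7, and the small classes of Chga and endothelium cells, most.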

Other observations

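In immune cells, outside the 7 classes, Id2 gave 93.6% of the Id UMIs in the knockout-labelled library (73 of 78 UMIs) and 73.2% in the control library (224 of 306 UMIs), at 294 and 300.4 CPM. Id3 had 1 UMI in 22 knockout-labelled cells (4.03 CPM, 0.10 to 22.4) and 43 UMIs in 80 control cells (57.7 CPM, 41.7 to 77.7). Of those 43 UMIs, 20 were in 1 cell.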
